A study of Drosophila melanogaster with 4 samples.

Results

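The Hippo pathway genes described here are *yki*, *sd*, *hpo*, *wts*, *sav*, *mats*, *ex*, *Mer*, *kibra* and *ft*. They were chosen by gene symbol and are 10 of the 13909 *Drosophila* genes with a quantified transcript. RNA was measured in S2R+ cells, a line derived from late embryos, in 2 libraries of the CRISPR mutant that lacks the enhancer inside an intron of *Notch* and in 2 libraries of wild-type cells. The study's methods give the same medium and temperature for S2R+ cells, and the labels name no treatment. Mutant cells were transfected with plasmids for Cas9 and guide RNAs and selected with puromycin, and no such step was described for wild-type. The mutant line was then isolated as a clone by serial dilution in partly conditioned medium. Cells cloned without editing were not analysed here, so the deletion cannot be told apart from other differences that arose with this handling and cloning. Replicates are described in the study's methods as independent libraries, with RNA extracted in duplicate, and nothing is said on separate cultures. The p-values therefore measure only the spread between these libraries, which may be technical. RNA came from whole cultures, where fewer cells of a kind and less RNA per cell cannot be told apart.

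The Hippo pathway is a kinase cascade that restrains tissue growth. The kinase Hippo, with its scaffold Salvador, phosphorylates Warts, and Warts, with its cofactor Mats, phosphorylates the coactivator Yorkie, which is then held in the cytoplasm by 14-3-3 proteins. Unphosphorylated Yorkie enters the nucleus and, bound to the DNA-binding protein Scalloped, turns on genes for growth and survival. Expanded, Merlin and Kibra sit upstream at the cell cortex, and the giant cadherin Fat acts upstream of Warts. The pathway is best known from imaginal discs, the larval epithelia that form the adult appendages.

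Estimated counts summed to 29605002 and 24880286 in the mutant libraries and to 19410313 and 16240543 in the wild-type libraries. *Notch*, the gene whose enhancer was deleted, was lower in the mutant, with 38.1 and 35.3 CPM in the mutant libraries, against 160 and 126 CPM in the wild-type libraries. Its log2 fold change was -1.96 ± 0.126 (SE; adjusted p = 9.46e-07 in edgeR's quasi-likelihood test, adjusted by Benjamini and Hochberg's method over all tested genes). CPM are counts relative to library size after scaling by trimmed means (TMM), so they compare libraries, while TPM also take transcript length into account and so compare genes. S2R+ cells are usually described as blood cell-like, and of 6 blood cell markers *srp*, *Pxn*, *crq* and *ush* lay between 17.9 and 124 TPM, whereas *Hml* stayed at or below 0.705 TPM and *NimC1* at or below 0.0609 TPM. Of the 5 blood cell markers tested, *Hml* was called lower (log2 fold change -1.79) and *crq* higher, and their part in the members' values was not tested. Of 6 markers of other tissues, only the neuronal gene *elav* exceeded 1 TPM in every library, at 7.78 and 8.02 TPM in the mutant and 14.2 and 11.4 TPM in wild-type, and 34.2% of its exonic bases overlap other genes. Of the 3 of these markers that were tested, the muscle gene *Act57B* was called higher (log2 fold change 1.93, adjusted p = 0.00825), at 0.562 and 0.847 TPM in the mutant and 0.322 and 0.157 TPM in wild-type.

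All members but *ft* were well expressed, and none of them changed by the criteria of the test. The criteria were an adjusted p under 0.05 in the edgeR test together with a log2 fold change of 0.5 or more in either direction. Of the 9 members with enough counts to be tested, 0 were called lower, against 15.3% of the 8182 tested genes, and 0 were called higher, against 12.6%. The fitted changes ran between -0.22 for *hpo* and 0.28 for *sd*, with a median of -0.17 over the 9 members and -0.0037 over all tested genes. Without the fold-change threshold, 0 members were lower, against 24.2% of tested genes, and 1 was higher, against 24.5%, namely *sd*. Before adjustment 4 members had a p below 0.05 in the edgeR test, *hpo* and *Mer* lower and *mats* and *sd* higher. An unadjusted p passes at least as many genes as the adjusted p, which passed 24.2% lower and 24.5% higher. DESeq2 gave an adjusted p below 0.05 to 2 members, *sd* and *ft*. The share of all genes was computed for neither count, so neither can be read as a result about the members. Permuting the labels of 2 mutant and 2 wild-type libraries exactly gives a single gene a two-sided p of 0.33 at best, so these p-values rest on the dispersion shared across genes.

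**Figure D1:**
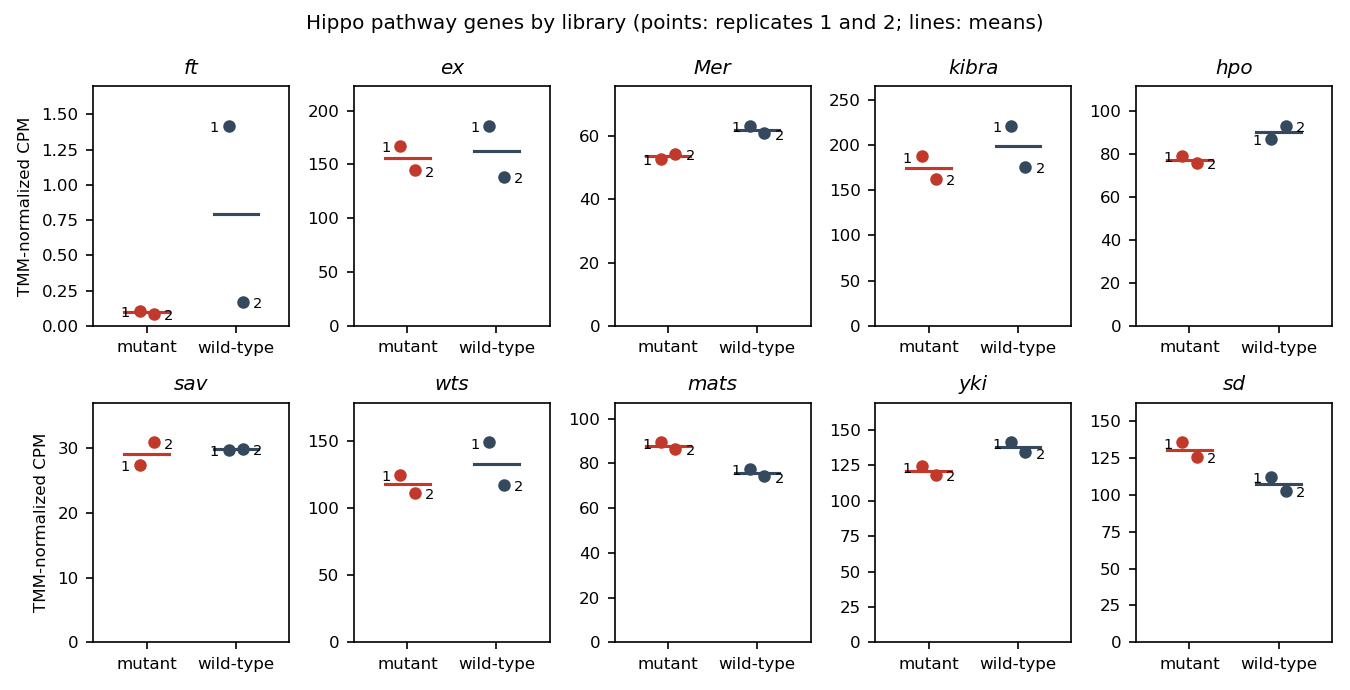
TMM-normalized CPM of the 10 Hippo pathway genes in each library, with the enhancer mutant on the left and wild-type on the right of each panel; points are replicates 1 and 2, lines are means, and every axis starts at 0. The groups are close together for 9 genes, and *ft* is near 0 except in wild-type replicate 1, at 1.42 CPM.

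Of the genes upstream of the kinases, *ft* was nearly silent and *ex*, *Mer* and *kibra* were expressed in every library and did not pass the test. *ft*, which encodes the Fat cadherin, held 3 and 2 counts in the mutant libraries, against 29 and 3 counts in the wild-type libraries. Of these libraries, wild-type replicate 1 stood apart, and the other 3 were all at or below 3 counts, the level taken as the floor of detection. The gene did not pass the filter on low counts. Pooled over libraries and corrected for depth, the ratio of mutant to wild-type was 0.117 (95% interval 0.0355 to 0.302, counting error only). Tested without the filter, *ft* had a log2 fold change of -2.95 (adjusted p = 0.00157, edgeR's quasi-likelihood test), and DESeq2 gave -3.01 (adjusted p = 0.0483). The pooled ratio and both of these values rest on wild-type replicate 1: without it the counts were 3 and 2 against 3, and the gene was not tested. The interval of the pooled ratio does not cover the spread between the wild-type libraries. Leaving out a mutant library gave adjusted p-values of 0.146 and 0.155 from the same edgeR test. *ft* lies on chromosome arm 2L at 4198404 to 4221796 (dm6, minus strand) and has a single transcript of 16852 bases, the longest of the members.

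*ex* encodes Expanded, a FERM-domain protein of the apical cortex that is also a target gene of Yorkie. It had 167 and 145 CPM in the mutant libraries, against 186 and 139 CPM in the wild-type libraries. The groups overlapped, and within each condition replicate 1 was the higher library. The log2 fold change was -0.06 ± 0.134 (SE; 95% interval -0.35 to 0.24; adjusted p = 0.744). *ex* lies on 2L at 431227 to 448701 (dm6, plus strand), and 448 bases of its exons, 6.71% of them, overlap exons of *crq* on the opposite strand. *crq*, which encodes a scavenger receptor of blood cells, was called higher in the mutant (log2 fold change 1.12 ± 0.0925, SE), with 124 and 112 TPM in the mutant and 73.5 and 73.9 TPM in wild-type. Whether the libraries kept strand is not given in the sources used here, so reads from the shared bases cannot be assigned with certainty, and their part in the values of *ex* was not tested.

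*Mer* encodes Merlin, the ortholog of the human tumor suppressor NF2. It had 52.8 and 54.3 CPM in the mutant libraries, against 63.1 and 60.8 CPM in the wild-type libraries. Both mutant libraries were below both wild-type libraries, by a small margin. The log2 fold change of -0.21 ± 0.0885 (SE; 95% interval -0.41 to -0.02) did not pass the test (adjusted p = 0.0687). *kibra*, whose WW-domain protein binds Merlin, had 187 and 163 CPM in the mutant libraries, against 221 and 176 CPM in the wild-type libraries. The groups overlapped, with a log2 fold change of -0.18 ± 0.12 (SE; 95% interval -0.45 to 0.08; adjusted p = 0.232). *Mer* lies on X at 19689697 to 19693500 (dm6, minus strand) and *kibra* on 3R at 14697689 to 14724261 (dm6, minus strand), and no other gene shares their exons.

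The core cascade, the kinases Hippo and Warts and their cofactors Salvador and Mats, was likewise expressed in every library, and its 4 genes had fitted changes of either sign, of which none passed the test. *hpo* had 79.2 and 75.8 CPM in the mutant libraries, against 87.2 and 93.1 CPM in the wild-type libraries. The mutant libraries were the lower ones, without overlap. The log2 fold change was -0.22 ± 0.0943 (SE; 95% interval -0.43 to -0.0097; adjusted p = 0.0777), the most negative value among the tested members. *wts* had 125 and 112 CPM in the mutant libraries, against 149.1 and 117.5 CPM in the wild-type libraries, so that wild-type replicate 2 lay between the mutant libraries. Its log2 fold change was -0.17 ± 0.121 (SE; 95% interval -0.44 to 0.09; adjusted p = 0.26). *hpo* lies on 2R at 19493996 to 19496856 (dm6, minus strand), where 130 exonic bases (4.64%) are shared with *Rep* on the opposite strand, and *wts* lies on 3R at 30789625 to 30806619 (dm6, minus strand).

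*sav* encodes the WW-domain scaffold that joins Hippo to Warts. It had 27.4 and 30.9 CPM in the mutant libraries, against 29.8 and 29.9 CPM in the wild-type libraries, so that the wild-type values lay between those of the mutant. Its log2 fold change was -0.04 ± 0.101 (SE; 95% interval -0.26 to 0.19; adjusted p = 0.792). *mats*, a Mob-family gene whose product binds and activates Warts, had 89.3 and 86.4 CPM in the mutant libraries, against 77.5 and 74.2 CPM in the wild-type libraries. Here the mutant libraries were the higher ones, without overlap, and the log2 fold change of 0.21 ± 0.0927 (SE; 95% interval 0.0072 to 0.42) missed the threshold (adjusted p = 0.0805). *sav* lies on 3R at 23058609 to 23061304 (dm6, minus strand) and shares 73 exonic bases (3.27%) with *Ctns* on the same strand. *mats* lies on 3R at 22421161 to 22423302 (dm6, plus strand).

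At the transcriptional end of the pathway, the coactivator and its DNA-binding partner differed in sign. *yki* had 124 and 118 CPM in the mutant libraries, against 141 and 134 CPM in the wild-type libraries. Both mutant libraries were lower, and the log2 fold change of -0.18 ± 0.0917 (SE; 95% interval -0.39 to 0.02) did not pass the test (adjusted p = 0.12). *sd*, the TEAD-family gene of the fly, had 135 and 126 CPM in the mutant libraries, against 112 and 102 CPM in the wild-type libraries. Both mutant libraries were higher, with a log2 fold change of 0.28 ± 0.0968 (SE; 95% interval 0.07 to 0.498), or 1.22-fold. *sd* was the only member with an adjusted p below 0.05 (adjusted p = 0.0317), and its change lay under the 0.5 needed for a call. Its adjusted p exceeded 0.05 without mutant replicate 1 (0.205), mutant replicate 2 (0.0969) or wild-type replicate 2 (0.0995) and was 0.0118 without wild-type replicate 1, and with library sizes alone its change was 0.09 (adjusted p = 0.5). *yki* lies on 2R at 24065975 to 24068485 (dm6, minus strand) and *sd* on X at 15804370 to 15827682 (dm6, plus strand), far from *Notch* on the same chromosome, which starts at 3134870.

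**Figure D2:**
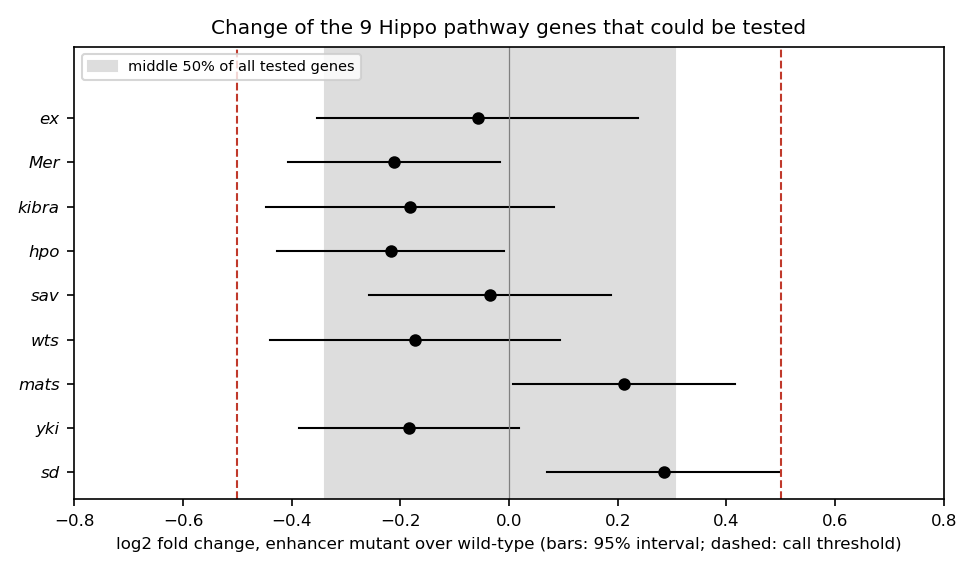
Log2 fold change of the enhancer mutant over wild-type for the 9 Hippo pathway genes that could be tested (horizontal axis), one gene per line. Points are edgeR estimates, bars their 95% intervals, dashed lines the call threshold of 0.5 in either direction, and the grey band the middle 50% of the 8182 tested genes, between -0.34 and 0.31; every point lies within the band and between the dashed lines.

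With TMM scaling, the 95% intervals of the 9 tested genes lay inside the range of -0.5 to 0.5 on the log2 scale, with the upper bound of *sd* nearest to its edge. In CPM, both mutant libraries were below both wild-type libraries for 3 of the 9 members (33.3%), against 37.9% of all tested genes. Both were above for 2 members (22.2%), against 37.7% of all tested genes, and 4 members overlapped (44.4%), against 24.4%. The scale matters for the count of lower genes. In TPM, which the authors computed with each library's effective lengths, both mutant libraries were below both wild-type libraries for 8 of the 9 members (88.9%), against 71.0% of all tested genes, and *sd* overlapped. Over all tested genes the median difference in log2(TPM + 0.1) was -0.43, and with library sizes alone in place of TMM the median log2 fold change was -0.2. Relative to that TPM median the members again fell on both sides, with *sd* at -0.11 and *mats* at -0.23 above it. The other 7 tested members lay between -0.46 and -0.67, so that 5 of them passed -0.5 on this scale. The share of all tested genes past -0.5 in log2(TPM + 0.1) was not computed, so this count has no background to be weighed against. The positive sign of *sd* and *mats* thus held in CPM and turned negative in TPM.

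Compared per length, *yki* was the most abundant member in both conditions. It had 80.3 and 69.3 TPM in the mutant libraries, against 113 and 111 TPM in the wild-type libraries. *mats* came second, with 44.3 and 39.1 TPM in the mutant and 48.8 and 49.0 TPM in wild-type. The ranges of these 2 genes did not overlap with each other or with the next gene in either condition.

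The middle of the order was crowded. *sd* had 30.1 and 25.9 TPM in the mutant libraries, against 31.0 and 29.4 TPM in the wild-type libraries, and *kibra* had 26.1 and 20.6 TPM in the mutant libraries, against 39.1 and 33.0 TPM in the wild-type libraries. *hpo* had 22.5 and 19.7 TPM in the mutant libraries, against 31.6 and 35.8 TPM in the wild-type libraries. In the mutant *sd* and *kibra* overlapped, as did *kibra* and *hpo*. In wild-type *kibra* and *hpo* overlapped too, and *sd* lay below both.

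*Mer*, *ex* and *wts* followed. *Mer* had 17.7 and 16.5 TPM in the mutant libraries, against 26.7 and 27.1 TPM in the wild-type libraries. *ex* had 18.5 and 14.6 TPM in the mutant libraries, against 26.1 and 20.7 TPM in the wild-type libraries. *wts* had 16.6 and 13.6 TPM in the mutant libraries, against 25.1 and 20.9 TPM in the wild-type libraries. In the mutant *Mer* overlapped with *ex*, and *ex* overlapped with *wts* in both conditions.

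*sav*, the scaffold, was the lowest of the expressed members, with 11.3 and 11.6 TPM in the mutant libraries, against 15.5 and 16.1 TPM in the wild-type libraries. *ft* stood far below, with 0.00457 and 0.00336 TPM in the mutant libraries, against 0.077 and 0.00983 TPM in the wild-type libraries.

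Ratios of TPM between members of one complex are free of the overall shift of a library, and are given as a description, with no test. They are not free of shifts that go with gene length, described below. The mean effective length was 1450 bases for *mats* and 5401 bases for *wts*, and the part of length in the ratios was not tested. The ratio of *yki* to *sd* was 2.67 and 2.68 in the mutant libraries, against 3.63 and 3.77 in the wild-type libraries, without overlap. The ratio of *mats* to *wts* was 2.66 and 2.88 in the mutant libraries, against 1.95 and 2.34 in the wild-type libraries. That of *hpo* to *sav* was 1.99 and 1.70 in the mutant libraries, against 2.04 and 2.23 in the wild-type libraries. The first ratio was lower and the second higher in both mutant libraries, and the third lower in both. How often the ratios of other gene pairs separate in this way was not computed, so these separations have no background to be weighed against. The ratios of *ex* to *Mer* and of *kibra* to *Mer*, members that act together at the cortex, overlapped between conditions, at 0.884 to 1.04 in the mutant and 0.764 to 0.978 in wild-type for *ex*, and at 1.25 to 1.47 in the mutant and 1.22 to 1.46 in wild-type for *kibra*.

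The ratio between replicates differed with the length of the gene. The CPM of replicate 1 over replicate 2 was 1.05 in both conditions for *yki*, with a mean effective length of 1133 bases, and 1.03 in the mutant and 1.04 in wild-type for *mats*, with 1450 bases. For *sav*, with 1758 bases, it was 0.888 in the mutant and 0.995 in wild-type. For *kibra*, *wts* and *ex*, between 5152 and 6480 bases long, the ratio was between 1.12 and 1.16 in the mutant and between 1.26 and 1.34 in wild-type. The 3 longest tested members were thus higher in replicate 1 of each condition. The same was seen over all tested genes of 4000 bases and more, with medians of 1.12 in the mutant and 1.14 in wild-type, while genes under 2000 bases had 0.958 in the mutant and 0.968 in wild-type. Changes between conditions went with length as well. The median log2 fold change was -0.23 over the 1060 genes of at least 4000 bases and 0.09 over the 4954 genes under 2000 bases, and the part of length in the members' values was not tested beyond an offset for effective length, under which 0 members were called.

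**Figure D3:**
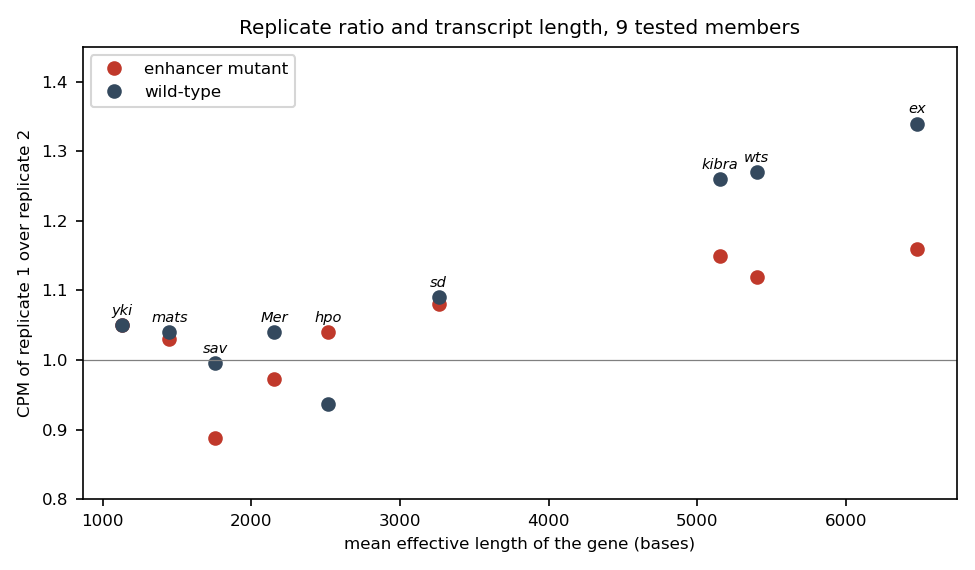
CPM of replicate 1 over replicate 2 (vertical axis) against the mean effective length in bases (horizontal axis) for the 9 tested Hippo pathway genes, in the enhancer mutant and in wild-type. The 3 longest genes lie between 1.12 and 1.34, and the 3 shortest between 0.888 and 1.05.

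Most members were carried by one annotated transcript, while *yki*, *sd*, *kibra* and *sav* were divided between several. Shares of a gene's TPM were computed for transcripts holding at least 10% in a condition. In genes with several transcripts, 8 of 14 such transcripts of the members (57.1%) did not overlap between conditions, against 51.9% of 7894 such transcripts of all genes. This share is close to the background. *wts* and *ft* have a single transcript, and 1 transcript held nearly all of *hpo*, *mats*, *ex* and *Mer*. Salmon divides reads between overlapping transcripts by estimation, and no test was made on these shares.

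For *yki*, the transcript *yki-RH*, of 1525 bases, 5 exons and a coding length of 1254 bases, held 68.9% and 76.1% in the mutant libraries, against 81.0% and 79.9% in the wild-type libraries. The shorter *yki-RD*, of 1369 bases, 4 exons and a coding length of 1029 bases, held 22.0% and 19.3% in the mutant libraries, against 15.02% and 14.7% in the wild-type libraries. Both transcripts share their start and end, at 24068485 and 24065975. The short form therefore took a larger share in both mutant libraries, and the mutant libraries differed from each other by more than the wild-type libraries did.

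*sd* was spread over 21 quantified transcripts, of which *sd-RN* was the leading one with 21.2% and 22.8% in the mutant libraries, against 24.7% and 19.0% in the wild-type libraries. *sd-RM*, which at 5331 bases extends past the common end of the gene, held 10.3% and 10.2% in the mutant libraries, against 13.8% and 17.9% in the wild-type libraries. *sd-RI* held 6.81% and 6.5% in the mutant libraries, against 7.94% and 18.5% in the wild-type libraries. Replicates differed widely here: *sd-RS* held 10.3% in wild-type replicate 1 and 2.99% in wild-type replicate 2, against 10.9% and 13.0% in the mutant libraries.

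*kibra* was divided between transcripts with the same start and the same coding length of 3864 bases that end at different sites. The longer *kibra-RB* held 64.0% in both mutant libraries, against 65.8% and 63.4% in the wild-type libraries, so that the groups overlapped. For *sav*, *sav-RB*, 15 bases shorter than *sav-RA* at 2220 against 2235 bases, held 0 and 4.38% in the mutant libraries, against 5.26% and 20.2% in the wild-type libraries. The wild-type libraries of *sav* were farther apart than the conditions' nearest libraries.

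**Figure D4:**
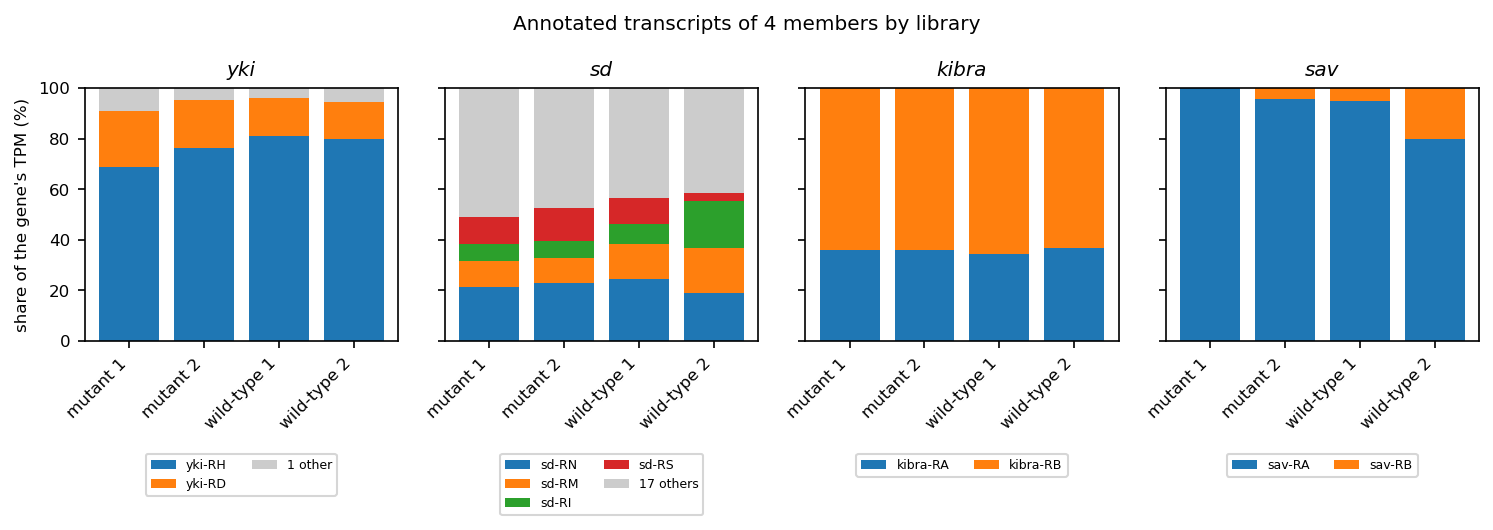
Share of each gene's TPM held by its annotated transcripts (vertical axis, percent) in mutant replicates 1 and 2 and wild-type replicates 1 and 2, for *yki*, *sd*, *kibra* and *sav*; transcripts under 10% are drawn together in grey. *yki-RD* takes 22.0% and 19.3% in the mutant and 15.02% and 14.7% in wild-type, while *kibra* has nearly the same division in all 4 libraries.

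The wider pathway was examined in 65 other genes in 8 lists drawn up by role, of which 59 could be tested. Here 13 were called lower and 8 higher, together 35.6% of those tested, against 27.9% of all tested genes, and 38 were not called. Their median log2 fold change was 0.0015, against -0.0037 over all tested genes. The called genes *fj*, *lft*, *Dlish* and *Ser* had fewer than 10 counts in a mutant library and so entered the test through their wild-type counts. With at least 10 counts required in every library, 16 of 55 genes were called, against 1916 of 7572 overall genes tested in that way. Whether the members and the other genes differ was not tested. The lists differed in direction, from 7 lower of 11 among target genes of Yorkie to 3 higher of 8 at junctions and cortex. Over all tested genes 15.3% were called lower and 12.6% higher. The lists were drawn up with earlier results of these data known, so these counts are a description.

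The Fat-Dachsous branch acts between neighboring cells, and its called genes lay under 1 TPM in the mutant. Of the 7 genes of this list 5 could be tested, of which 3 were called (60.0%, against 27.9% of all tested genes), each of them lower. The median log2 fold change was -1.25. *fj*, whose Golgi kinase phosphorylates the cadherin domains of Fat and Dachsous, held 1 count in each mutant library, against 17 and 21 counts in the wild-type libraries, a depth-corrected ratio of 0.0393 (95% interval 0.0046 to 0.152, counting error only; adjusted p = 0.00041). *lft*, which encodes an intracellular partner of both cadherins, had 0.1809 and 0.3415 TPM in the mutant libraries, against 2.46 and 2.65 TPM in the wild-type libraries (log2 fold change -2.86 ± 0.39, SE; adjusted p = 0.000213). *Dlish*, an SH3-domain gene of the branch, had 0.358 and 0.174 TPM in the mutant libraries, against 0.936 and 0.801 TPM in the wild-type libraries (log2 fold change -1.25 ± 0.445, SE; adjusted p = 0.038). The call on *Dlish* was lost when any single library was left out, with log2 fold changes of -1.78 and -0.89 without mutant replicates 1 and 2 and -1.10 and -1.37 without wild-type replicates 1 and 2, and with DESeq2 (adjusted p = 0.222). The cadherin gene *ds* held 0 counts in both mutant libraries, against 2 and 1 in the wild-type libraries, and *dachs*, which encodes a myosin, held 3 in each mutant library, against 7 and 13 in the wild-type libraries. *app*, a palmitoyltransferase gene, had 7.86 and 7.08 TPM in the mutant libraries, against 13.7 and 12.4 TPM in the wild-type libraries (log2 fold change -0.36, adjusted p = 0.0124), and *Fbxl7*, which encodes an F-box protein, had 3.52 and 2.35 TPM in the mutant libraries, against 5.26 and 4.76 TPM in the wild-type libraries (-0.35, adjusted p = 0.105), and neither was called. Of the 5 tested genes, the 3 called ones are those with fewer than 10 counts in a mutant library, and requiring 10 counts in every library left the list with no call.

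Of 9 genes of apical-basal polarity, 3 were called (33.3%, against 27.9% of all tested genes), each of them lower. The median log2 fold change was 0.04. *crb*, whose transmembrane product binds Expanded, had 0.759 and 0.571 TPM in the mutant libraries, against 3.84 and 2.53 TPM in the wild-type libraries (log2 fold change -1.80 ± 0.203, SE; adjusted p = 6.16e-05). *sdt*, its intracellular partner, had 2.29 and 2.47 TPM in the mutant libraries, against 5.13 and 4.96 TPM in the wild-type libraries (log2 fold change -0.64 ± 0.116, SE; adjusted p = 0.00122). Both were lower without overlap between conditions, while *Patj*, another gene of the Crumbs complex, was not called (log2 fold change 0.23, adjusted p = 0.0574). *scrib*, a basolateral scaffold, had 19.9 and 14.8 TPM in the mutant libraries, against 35.9 and 31.7 TPM in the wild-type libraries (log2 fold change -0.53 ± 0.119, SE; adjusted p = 0.00405). The call on *scrib* was lost without mutant replicate 2 (-0.39, adjusted p = 0.0997) and without wild-type replicate 1 (-0.40, under the 0.5 threshold).

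Of 8 genes of junctions and the cortex, 3 were called (37.5%, against 27.9% of all tested genes), each of them higher. The median log2 fold change was 0.2. *ed*, an immunoglobulin-domain adhesion gene, had 1.16 and 1.13 TPM in the mutant libraries, against 0.589 and 0.369 TPM in the wild-type libraries (log2 fold change 1.71 ± 0.24, SE, on counts; adjusted p = 0.000254). *kst*, which encodes the heavy beta-spectrin of the apical cortex, had 74.99 and 56.8 TPM in the mutant libraries, against 43.3 and 26.6 TPM in the wild-type libraries (log2 fold change 1.36 ± 0.204, SE; adjusted p = 0.000375). *Schip1*, whose product links Expanded to the kinase Tao, had 3.10 and 3.27 TPM in the mutant libraries, against 2.74 and 1.99 TPM in the wild-type libraries (log2 fold change 0.85 ± 0.213, SE; adjusted p = 0.00734). These 3 genes were higher in both mutant libraries in CPM and in TPM alike. The call on *Schip1* was lost without mutant replicate 2 (0.77, adjusted p = 0.0752).

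Among other regulators of the cascade 3 of 20 tested genes were called. Of 8 kinases that act on the cascade, 1 was called (12.5%, against 27.9% of all tested genes), and it was lower, with a median log2 fold change of -0.08 over the list. Among 4 relatives of Warts and Mats 0 were called by edgeR and 0 by DESeq2, with a median of 0.02, and the 2 with an unadjusted p below 0.05 were *trc*, the other kinase of the Warts family, at -0.25 (adjusted p = 0.0382) and *Mob2* at 0.40 (adjusted p = 0.00493). The called kinase was *Sik2*, a salt-inducible kinase that phosphorylates Salvador, with 0.831 and 0.892 TPM in the mutant libraries, against 2.69 and 2.86 TPM in the wild-type libraries (log2 fold change -1.24 ± 0.158, SE; adjusted p = 0.000133). Exons of other genes cover 9.35% of *Sik2*. Of 8 genes for Rassf and the STRIPAK phosphatase complex, which removes phosphate from Hippo, 2 were called (25.0%), both higher, with a median of 0.05. *mts*, the catalytic subunit of protein phosphatase 2A, had 234 and 227 TPM in the mutant libraries, against 177 and 192 TPM in the wild-type libraries (log2 fold change 0.61 ± 0.0944, SE; adjusted p = 0.000488). *Slmap*, an adaptor between Hippo and the complex, had 85.7 and 71.1 TPM in the mutant libraries, against 80.9 and 67.2 TPM in the wild-type libraries (log2 fold change 0.52 ± 0.122, SE; adjusted p = 0.00514). *Slmap* overlapped in TPM, and its call was lost without mutant replicate 1 (0.46) and without wild-type replicate 2 (0.37). With library sizes alone the changes of *mts* (0.41) and *Slmap* (0.33) lay under the threshold, as did that of *Slmap* with upper quartile factors (0.488) and with at least 10 counts in every library (0.4985).

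Of 10 partners of Yorkie and Scalloped 8 could be tested, of which 2 were called higher and 1 lower, with a median log2 fold change of 0.17. Together 37.5% of the tested partners were called, against 27.9% of all tested genes. *14-3-3zeta*, one of the proteins that hold phosphorylated Yorkie in the cytoplasm, had 1174 and 1161 TPM in the mutant libraries, against 948 and 805 TPM in the wild-type libraries (log2 fold change 0.85 ± 0.129, SE; adjusted p = 0.000419). *Tgi*, which encodes a repressor that binds Scalloped, had 86.6 and 81.0 TPM in the mutant libraries, against 76.9 and 79.5 TPM in the wild-type libraries (log2 fold change 0.51 ± 0.0878, SE; adjusted p = 0.000937). Both were higher in both mutant libraries, and *Tgi* lay under the threshold with library sizes alone (0.31), with upper quartile factors (0.47) and with at least 10 counts in every library (0.485). *mask*, a cofactor of Yorkie, had 36.82 and 28.15 TPM in the mutant libraries, against 73.4 and 52.2 TPM in the wild-type libraries (log2 fold change -0.52 ± 0.165, SE; adjusted p = 0.024). Its call was lost without mutant replicate 1 (-0.63, adjusted p = 0.0753), mutant replicate 2 (-0.39) or wild-type replicate 1 (-0.20), and with DESeq2 (adjusted p = 0.199). *vg*, a wing partner of Scalloped, held 1 and 2 counts in the mutant libraries, against 5 and 10 counts in the wild-type libraries, and *hth* held 0 counts in all 4.

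Target genes of Yorkie known from other tissues held the largest share of called genes among the 8 lists, at 72.7%, against 27.9% of all tested genes. Of 13 genes 11 could be tested, of which 7 were called lower, 1 was called higher and 3 were not called, with a median log2 fold change of -1.64. Of the called genes, *fj* and *Ser* had fewer than 10 counts in a mutant library and so entered the test through their wild-type counts. With at least 10 counts required in every library, 5 of 9 target genes were called lower and 1 higher, against 1916 calls among 7572 genes. After *fj*, the largest changes were those of *upd3* and *dlp*. *upd3*, a ligand of the JAK-STAT pathway, had 1.01 and 0.782 TPM in the mutant libraries, against 9.12 and 8.60 TPM in the wild-type libraries (log2 fold change -2.87 ± 0.173, SE; adjusted p = 6.02e-07). *dlp*, a glypican that binds secreted growth factors, had 1.205 and 0.7626 TPM in the mutant libraries, against 6.097 and 6.815 TPM in the wild-type libraries (log2 fold change -2.25 ± 0.167, SE; adjusted p = 2.8e-06). Both genes were lower in both mutant libraries. The other lower genes were *Ser*, *crb*, *vn* and *Myc*, named here after their values were seen, with log2 fold changes of -2.24, -1.80, -1.64 and -1.38. *Ser* and *vn* lay under 1 TPM in every library. *Ser* had 0.1015 and 0.0393 TPM in the mutant libraries, against 0.5265 and 0.388 TPM in the wild-type libraries. For *vn* the values were 0.236 and 0.164 TPM in the mutant libraries, against 0.965 and 0.712 TPM in the wild-type libraries. *Ser* encodes a ligand of Notch, *vn* a ligand of the EGF receptor and *Myc* a transcription factor of growth. The study placed *Myc* in a large chromosomal domain that is anchored at the deleted enhancer and was lost in the mutant. It already reported *Myc* among the genes of that domain that were lower in the mutant. Of the exonic bases of *Myc*, 61.2% overlap other genes. *dally*, the other glypican, was the gene called higher (0.61 ± 0.1, SE), and its TPM overlapped between conditions. Its call was lost with library sizes alone and with the length offset.

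The 3 tested target genes that were not called were *Diap1*, *CycE* and *E2f1*. *Diap1*, an inhibitor of apoptosis, had a log2 fold change of 0.39 (adjusted p = 0.00584) and *CycE*, a driver of S phase, one of -0.31 (adjusted p = 0.0176), so both missed only the fold-change threshold. *E2f1*, a transcription factor of the cell cycle, had 0.20 (adjusted p = 0.0946). The members *ex*, *Mer* and *kibra*, themselves targets, had -0.06, -0.21 and -0.18. *wg* and *upd1* held 0 counts in all libraries. *fj* and *crb* stand in more than one list, and the lists were drawn up with earlier results of these data known, so their counts are a description.

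**Figure D5:**
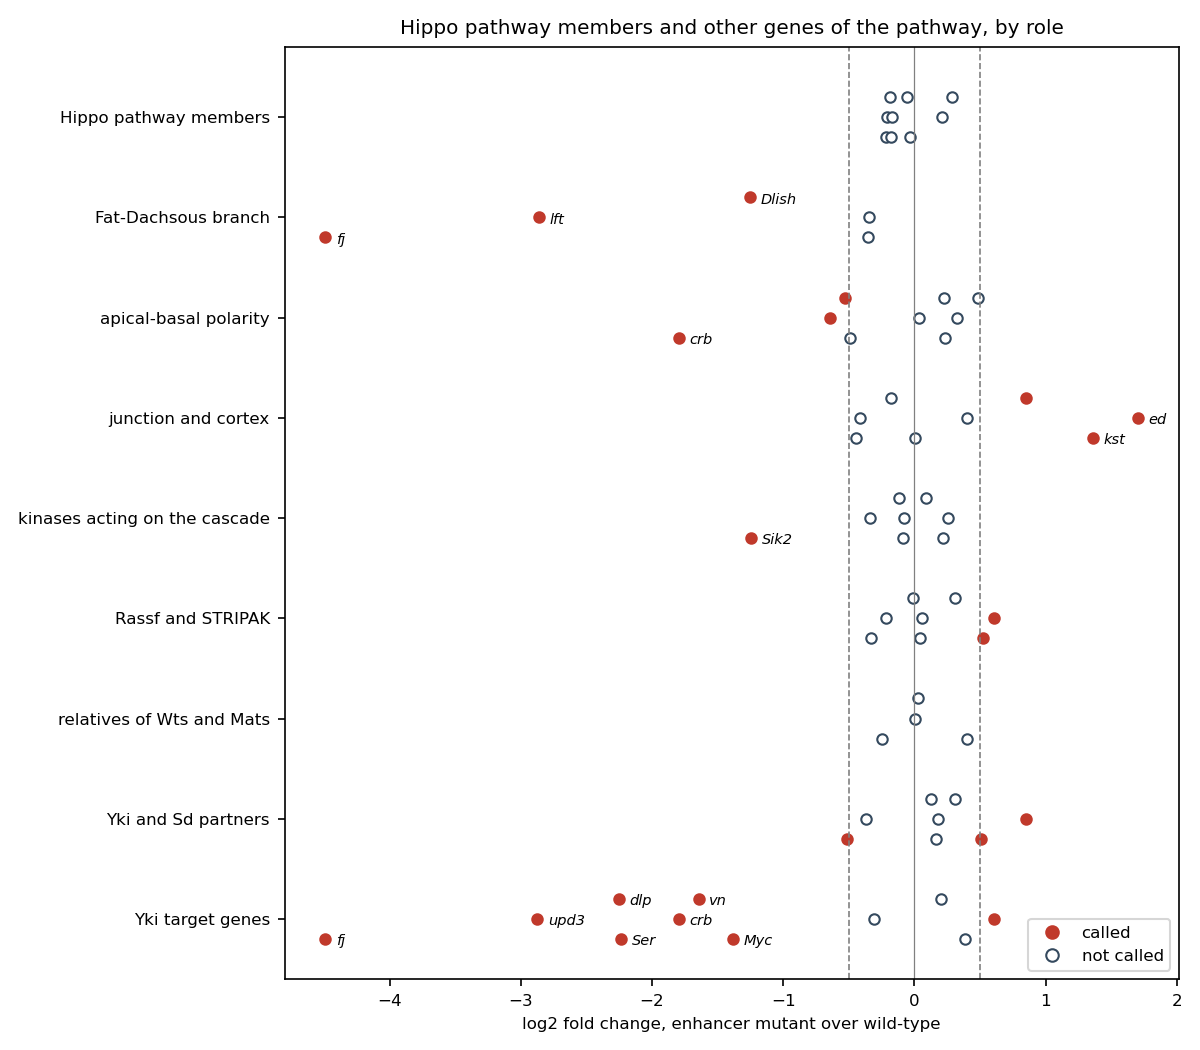
Log2 fold change of the enhancer mutant over wild-type (horizontal axis) for each tested gene of the Hippo pathway members and of 8 lists of other pathway genes (vertical axis, by role); filled points were called, open points were not, and dashed lines mark 0.5 in either direction. All 9 members lie between the dashed lines, while 7 of 11 target genes of Yorkie lie to the left of them; *dally*, the called target on the right, differs by 0.018 in log2(TPM + 0.1).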

How the data were processed

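Total RNA libraries of S2R+ cells, 2 of the enhancer mutant and 2 of wild-type, were sequenced as paired-end reads. The authors ran Salmon 0.10.2 against dm6 transcripts and deposited, per transcript, estimated counts, which are not normalized, TPM values, which are scaled within a library and corrected for length, and effective lengths. The release of that annotation and the strand setting are not given in the sources used here.

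Transcripts were assigned to genes by Ensembl's dm6-based annotation (29850 of 30070 listed; the other 220 held 0.230% to 0.292% of a library's counts). Estimated counts were summed per gene, rounded to whole numbers, filtered with filterByExpr, scaled by TMM and fitted with edgeR 4.0.16 in R 4.3.3 (glmQLFit, glmQLFTest), with Benjamini-Hochberg adjustment over 8182 genes. The call threshold reads the fold-change of 0.5 in the study's methods as log2. Standard errors are the size of the log2 fold change over the square root of F, and intervals are 95%. The coefficient of variation shared across genes was 0.0849. Up to 3 counts was taken as the floor, and intervals of pooled ratios cover counting error only. Depth lay between 16240543 and 29605002 estimated counts.

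The members came from a list of symbols. From each other list, the called genes were counted and the 3 with the largest absolute change named, and *Notch* was given as the targeted gene. Members and lists were chosen with earlier results of these data known. Alternatives were DESeq2 1.42.0, which the authors also used, other scalings, filters and thresholds, a length offset, a replicate block, leaving out single libraries, and log2(TPM + 0.1) and log2(TPM + 1). The edgeR fit, with and without the replicate block or length offset, and DESeq2 were run on simulated data in which 200 genes changed. The simulation took its dispersions from the edgeR fit, and its changes were larger than any fitted for a tested member. It therefore does not show how the fits handle changes as small as those of the members. Hi-C data were not analysed here.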

Additional observations from a re-analysis of the deposited data

How the results depend on the processing

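Among the members, 0 genes were called with the replicate block, RLE or upper quartile factors, library sizes alone, at least 10 counts in every library, the length offset and a change of at least 1.5-fold. The count was 1 without a filter on low counts and 1 with DESeq2, *ft* in both, and 1 with the adjusted p alone, *sd*. With the adjusted p alone and the replicate block, chosen after seeing the data, it was 6 (*Mer*, *hpo*, *kibra*, *mats*, *sd* and *yki*), all with changes under 0.5. Leaving out each library gave 0 to 1, the 1 being *ft* without wild-type replicate 2. Over all 8182 tested genes the count of 2285 became 3984 with the adjusted p alone and 4524 with the block as well, and for the other pathway genes 21 became 37 and 44. Without a filter on low counts 2454 of 11220 genes were called, and with DESeq2 1995 of 8827. With library sizes alone, 1984 genes were lower and 560 higher, against 1254 and 1031 with TMM, and 22 and 4 of the other pathway genes, against 13 and 8. Leaving out libraries gave 1773 to 2329 genes overall and 17 to 21 of the other pathway genes. In the fits on counts the sign of 3 small changes turned: *wts* ran between -0.32 and 0.014 over left-out libraries, *sav* between -0.11 and 0.064, with 0.0062 without a filter, and *ex* between -0.24 and 0.17. In log2(TPM + 0.1) the signs of *sd* (-0.11) and *mats* (-0.23) turned as well. The cause was not tested.

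Both conditions share replicate numbers, but no label ties a number to a culture or batch. The deviations of same-numbered libraries correlated at 0.223 over 8182 genes and 0.407 over the 4643 whose mean log2 CPM reached 5. With the replicate block 2276 genes were called overall and 20 of the other pathway genes, *mask* being the one lost (-0.49), and the calls on the 8 target genes of Yorkie held. Requiring 10 counts in every library left 6 of those 8, since *fj* and *Ser* were not tested, and likewise dropped *lft* and *Dlish*. Depth limits *ft*, *ds*, *dachs*, *vg* and *fj*.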
